A study of Mus musculus with 4 samples.

Results

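Cdkn1a and 9 further genes of the p53 pathway (Trp53, Mdm2, Ccng1, Plk2, Sesn1, Trp53inp1, Phlda3, Aen and Zmat3) were followed in mouse splenic cells that carry MHC class II. The genes were picked by symbol from a table of 17519 genes, with their values in these libraries already known, and all 10 were present. In 3 libraries (day 1) the cells had spent 24 h in Advanced RPMI1640 medium with 10% fetal bovine serum and 50 µg/ml PSA. PSA is polysaccharide A, a capsular sugar polymer that Bacteroides fragilis, a bacterium of the gut, makes. These libraries were set against 1 library of freshly isolated, unstimulated cells (day 0). All cells came from the spleen of adult C57Bl.6 mice and were taken out with magnetic beads. The title of the series names the response of such cells to PSA as its subject. No cells cultured for a day without PSA were analysed here, so PSA, a day in culture and the preparation of the lone day 0 library cannot be told apart. Whether the 3 day 1 libraries stem from different mice or cultures is not stated in the labels, so p-values measure the spread among those 3 libraries only, and that spread may be technical.

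The p53 protein, encoded by Trp53 in the mouse, is a transcription factor that accumulates after DNA damage and other stress. It binds DNA as a tetramer at pairs of a short consensus decamer and switches on genes that stop the cell cycle, repair DNA or start cell death. Mdm2, one of these targets, marks p53 for destruction and so closes a feedback loop. Cdkn1a encodes p21, an inhibitor of cyclin-dependent kinases that holds cells before DNA replication. Cdkn1a can also be switched on without p53, for instance by growth factor and cytokine signals. In lymphocytes p53 is best known for removing cells with unrepaired DNA breaks.

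The regions around the annotated starts are shown because they hold the DNA letters that p53 is known to bind. RefSeq windows (GRCm38.p6) from 250 bases before to 50 bases after a start were matched for 8 of the 10 genes, in 11 windows; Trp53inp1 and Zmat3 were not matched. Capitals mark exact matches to the p53 consensus decamer, which reads the same on both strands. Positions are counted with the annotated start as 0. Cdkn1a has 2 windows on the plus strand, whose starts lie 2790 bases apart.
Cdkn1a upstream start, chr17:29090729-29091028: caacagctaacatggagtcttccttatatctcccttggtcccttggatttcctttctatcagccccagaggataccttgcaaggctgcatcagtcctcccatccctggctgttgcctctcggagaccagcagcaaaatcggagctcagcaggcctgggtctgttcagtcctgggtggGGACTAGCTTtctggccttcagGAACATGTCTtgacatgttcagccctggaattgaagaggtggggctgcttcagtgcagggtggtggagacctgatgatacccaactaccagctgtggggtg
Cdkn1a downstream start, chr17:29093519-29093818: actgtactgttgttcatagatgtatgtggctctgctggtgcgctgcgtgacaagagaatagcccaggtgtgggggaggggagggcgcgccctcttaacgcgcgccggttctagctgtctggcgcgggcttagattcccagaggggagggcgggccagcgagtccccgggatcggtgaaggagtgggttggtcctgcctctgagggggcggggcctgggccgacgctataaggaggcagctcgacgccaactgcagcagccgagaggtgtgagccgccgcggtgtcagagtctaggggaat

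The upstream Cdkn1a window held 2 exact decamers, at -73 and -51, and the downstream window held none. The decamer at -51 is followed directly by another that differs from the consensus at 1 base, which gives the paired site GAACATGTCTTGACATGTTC (chr17:29090928-29090947, plus strand). A paired site with at most 1 mismatch was present in 29 of 32851 RefSeq windows (0.0883%), and Ccng1 had the other one among these genes. Short stretches around the decamers of the other genes are given for comparison, with the paired site of Ccng1 and the decamers of the rest in capitals, each on the strand of its gene.
Ccng1, chr11:40755452-40755491, minus strand: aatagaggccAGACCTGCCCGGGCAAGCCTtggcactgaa
Mdm2, chr10:117710925-117710954, minus strand: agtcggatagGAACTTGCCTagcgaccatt
Trp53, chr11:69580274-69580303, plus strand: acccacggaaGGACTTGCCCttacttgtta
Sesn1, chr10:41887256-41887285, plus strand: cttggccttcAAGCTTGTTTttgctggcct
Aen, chr7:78895927-78895956, plus strand: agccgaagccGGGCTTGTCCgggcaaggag

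An exact decamer was found near a start of 6 of the 8 matched genes (Cdkn1a, Ccng1, Mdm2, Trp53, Sesn1 and Aen). Over all 27025 genes in the RefSeq table the share was 9.55%. The matched genes were picked as p53 pathway genes, so nothing is read from this difference. Both Aen windows cover the same decamer, and 1 of the 2 Sesn1 windows held one. Plk2 and Phlda3 had none in these windows. The letters CATG on their own, which read the same on both strands, were in 61.1% of all windows and in 2 of these 11. TATAAA, searched on both strands, was in 13.6% of all windows and in 1 of these 11. These are matches of letters, with no measure of binding in these data.

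**Figure D1:**
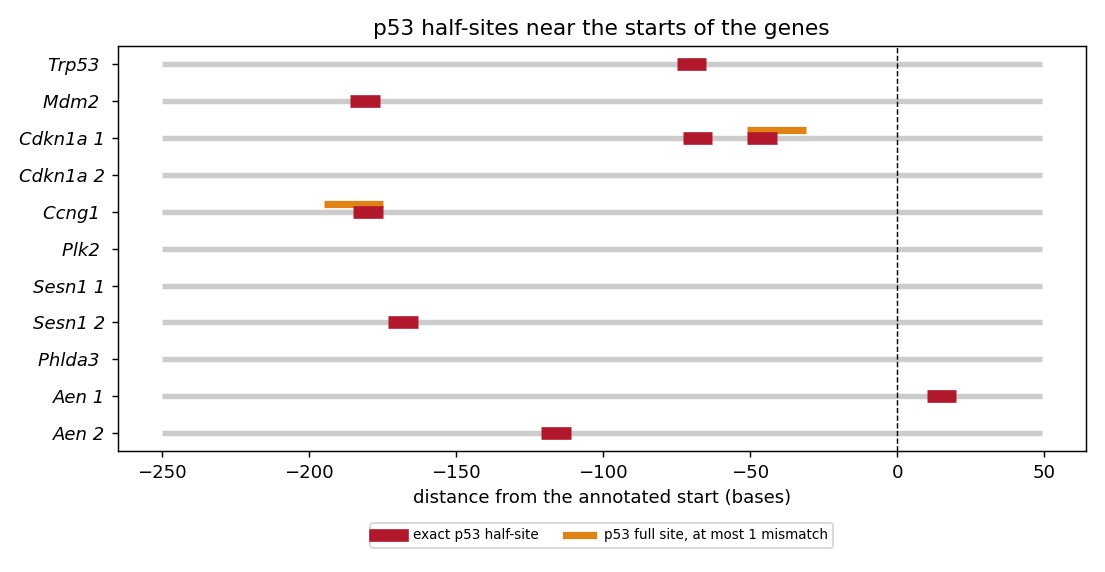
Grey bars are the 11 RefSeq windows around the annotated starts of 8 genes, by distance from the start in bases; red marks exact p53 consensus decamers (half-sites) and orange marks paired sites with at most 1 mismatch. The first Cdkn1a window (the upstream start) holds decamers at -73 and -51 and a paired site, and the second holds none.

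The deposited values are called FPKM in the labels, a level per transcript length and library size. Every value examined was, within rounding, a whole multiple of 0.01 times 1 constant per library. The constants were 0.722, 0.641 and 0.580 for day 1 replicates 1, 2 and 3, and 5.12 for day 0. Divided by these constants, each column summed to between 998888 and 999381, close to one common total. Protein-coding genes held 80.2%, 82.2% and 83.4% of the sum at day 1 and 11.5% at day 0. The direction and size of a day 1 to day 0 difference therefore depend on the constants. Values or ratios with the constants divided out are given below for each followed gene but Phlda3. The median log2 change of all genes tested was 0.59 as deposited and 2.26 with the constants divided out.

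The number of fragments behind a value also differed. In transcripts of 1 kb, 1 fragment was worth 0.334, 0.295 and 0.215 FPKM in the day 1 libraries and 4.71 FPKM at day 0. The same FPKM thus stood for 14.1, 15.96 and 21.9 times as many fragments at day 1. These ratios hold the library constants as well as sequencing depth, so they do not measure depth alone. At day 0, 7378 of 17519 genes were listed at 0, and the authors' deposited table gives 2711 of those a log2 fold change below 0, so a 0 at day 0 does not show that a gene was silent. Fragment numbers below are estimates from the longest annotated coding transcript. Day 0 intervals are exact Poisson 95% intervals on the rounded number, for counting error only. These intervals, and fragment numbers expected at day 0 from a day 1 level, hold for the deposited FPKM only. With the library constants divided out, the expected numbers would be larger.

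At day 1 the 10 genes spanned a wide range of levels. Trp53 was highest at 76.8 ± 8.1 FPKM, followed by Sesn1 at 38.3 ± 3.8, Ccng1 at 17.7 ± 2.2, Mdm2 at 16.9 ± 2.4, Aen at 10.5 ± 1.6 and Cdkn1a at 10.1 ± 0.42 (SD, n = 3). Trp53inp1 followed at 8.67 ± 2.06, Plk2 at 2.08 ± 0.70, Zmat3 at 1.32 ± 0.24 and Phlda3 at 0.362 ± 0.169 FPKM (SD, n = 3). The ranges of neighbouring genes overlapped between Ccng1 and Mdm2, among Aen, Cdkn1a and Trp53inp1, and between Plk2 and Zmat3, and no other neighbours overlapped. At day 0 the order was different, with Trp53 and Zmat3 at the top and Cdkn1a and Phlda3 listed at 0.

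**Figure D2:**
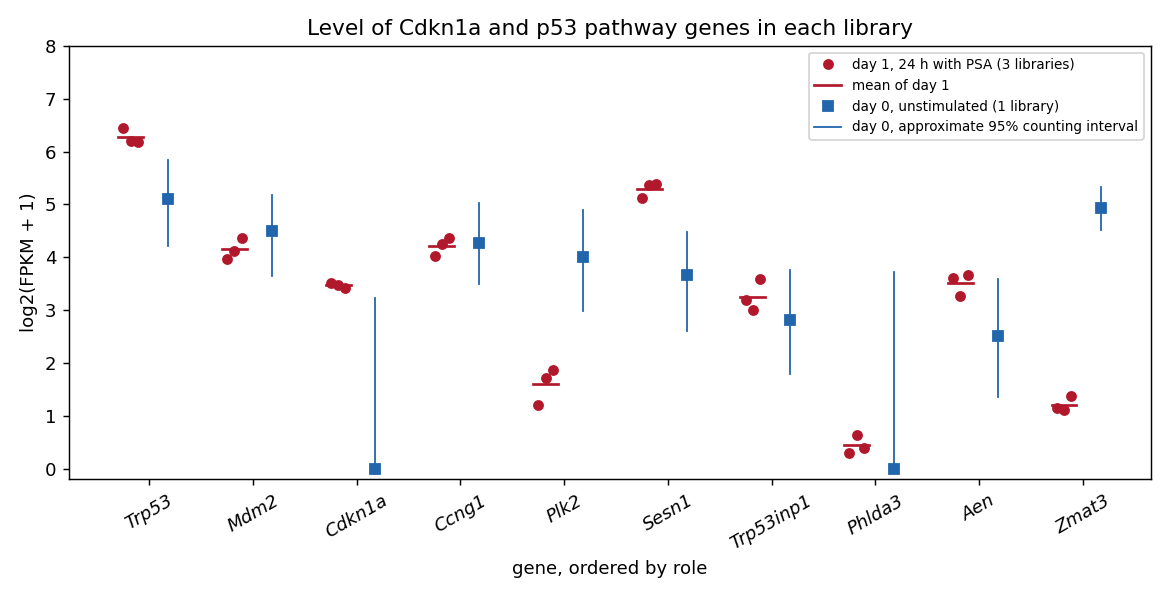
Level of each gene in each library as log2(FPKM + 1): red points are the 3 day 1 libraries with their mean as a bar, blue squares the single day 0 library with an approximate 95% counting interval. Plk2 and Zmat3 sit lower at day 1 than at day 0, Trp53, Sesn1 and Cdkn1a sit higher, and Mdm2 and Ccng1 stay within the day 0 interval.

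Trp53 itself (chromosome 11, 69580359 to 69591873, GRCm38) had 86.1, 72.9 and 71.3 FPKM in the day 1 libraries and 33.3 FPKM at day 0. All 3 day 1 libraries lay above the day 0 value and above its counting interval of 17.5 to 56.1 FPKM, which rests on about 13.2 fragments. The ratio of means was 2.3 in the deposited FPKM and 18.3 with the library constants divided out. The authors' deposited table gives a log2 fold change of 0.46 with a false discovery rate of 0.96. Mdm2 (chromosome 10, 117688875 to 117710758), the ubiquitin ligase that degrades p53, had 14.7, 16.4 and 19.5 FPKM in the day 1 libraries and 21.5 FPKM at day 0. All 3 day 1 values lay below the day 0 value but inside its counting interval of 11.5 to 35.2 FPKM. The direction of Mdm2 turned with the library constants divided out: it was at 20.4, 25.6 and 33.6 at day 1 and at 4.19 at day 0. In the authors' deposited table Mdm2 stands at -0.11 on the log2 scale, with a false discovery rate of 1.

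Cdkn1a (chromosome 17, 29090976 to 29100727) had 10.5, 10.0 and 9.63 FPKM in the day 1 libraries and was listed at 0 at day 0. The day 1 values stand for about 65, 71 and 93 fragments. At the same deposited FPKM, about 4.43 fragments would have been found at day 0, and more with the library constants divided out. A count of 0 there allows up to 6.80 FPKM by the limit of 3 fragments. The upper end of the 2-sided 95% interval is 8.36 FPKM. Among the 2610 genes whose day 1 mean was within 1.5-fold of that of Cdkn1a, 519 (19.9%) were also listed at 0 at day 0. Of those 519, 12 are called higher in the authors' deposited table. Cdkn1a is one of its 49 genes called higher at a false discovery rate under 0.05, with a log2 fold change of 2.02 and a false discovery rate of 0.026. On the log2(FPKM + 1) scale the difference was 3.47, a size that the pseudocount sets when the day 0 value is 0.

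The day 1 values of Cdkn1a lay close together, at about 65, 71 and 93 fragments. Such counts carry counting error of their own, so 3 close values cannot show that the level was steady. The coefficient of variation of Cdkn1a was 4.17%, against a median of 16.1% over the 2610 genes of like level, of which 5.98% had a lower one. With the library constants divided out, Cdkn1a was at 14.5, 15.7 and 16.6 at day 1, with an SD of 1.06 about a mean of 15.6. The coefficients of variation of the other genes ran between 10.0% for Sesn1 and 46.6% for Phlda3. Once the library constants were divided out, Trp53 had the lowest, at 3.95%, and Cdkn1a was next at 6.78%, against medians of 13.5% and 21.5% over genes of like level. Trp53, Mdm2, Ccng1, Sesn1, Plk2 and Aen each lay near the middle of genes of like level in the deposited FPKM (between 41.2% and 55.1% had a lower one).

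The other cell cycle genes did not share this pattern. Ccng1, which encodes cyclin G1, a partner of the phosphatase PP2A in the regulation of Mdm2, had 15.3, 18.02 and 19.6 FPKM at day 1 and 18.2 FPKM at day 0. The groups overlapped, and the authors' deposited table gives Ccng1 a log2 fold change of 0.10 with a false discovery rate of 1. Ccng1 with the library constants divided out was at 21.2, 28.1 and 33.8 at day 1 and at 3.56 at day 0, so that the groups no longer overlapped. Plk2, a polo-like kinase of the centrosome and of stress responses, had 1.3, 2.3 and 2.65 FPKM at day 1 and 15.0 FPKM at day 0. Its day 0 value was 7.21 times the day 1 mean and stands for about 8.92 fragments, with a counting interval of 6.93 to 28.8 FPKM that lies above all 3 day 1 values. The call for Plk2 in the authors' deposited table is lower, at -3.91 on the log2 scale and a false discovery rate of 8.0e-10. With the library constants divided out, Plk2 was at 1.80, 3.58 and 4.57 at day 1 and 2.93 at day 0, and the direction was lost.

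Sesn1 encodes sestrin 1, which restrains the growth kinase complex mTORC1 under stress. It had 33.9, 40.2 and 40.8 FPKM at day 1 and 11.7 FPKM at day 0, about 9.48 fragments. All 3 day 1 values lay above the day 0 counting interval of 5.09 to 21.1 FPKM. The ratio of means was 3.27 in the deposited FPKM and 26.2 with the library constants divided out. For Sesn1 the authors' deposited table holds 0.62 on the log2 scale and a false discovery rate of 0.89.

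Among the genes tied to cell death, Aen was clearest at day 1 and Phlda3 was barely detected. Trp53inp1, a nuclear protein that promotes p53 activity and autophagy, had 8.08, 6.99 and 10.96 FPKM at day 1 and 6.00 FPKM at day 0. Every day 1 value lay inside the day 0 counting interval of 2.46 to 12.6 FPKM. With the library constants divided out, Trp53inp1 was at 11.2, 10.9 and 18.9 at day 1 and 1.17 at day 0. Aen, an exonuclease that takes part in apoptosis, had 11.2, 8.68 and 11.6 FPKM at day 1 and 4.71 FPKM at day 0. In the deposited FPKM the day 1 mean of Aen was 2.23 times the day 0 value. There, 1 day 1 library lay within the counting interval of 1.54 to 11.1 FPKM, which rests on about 4.96 fragments. The ratio for Aen was 17.8 with the library constants divided out. Phlda3, which blocks the kinase Akt at the membrane, was at 0.231, 0.552 and 0.302 FPKM at day 1, about 1 to 3 fragments, and was listed at 0 at day 0. A change of Phlda3 was not detectable at this depth. None of Trp53inp1, Aen and Phlda3 has a false discovery rate below 1 in the authors' deposited table.

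Zmat3, a zinc finger protein that binds RNA and affects splicing, was the gene with the widest gap in the deposited FPKM. It had 1.21, 1.17 and 1.60 FPKM at day 1 and 29.4 FPKM at day 0, a day 0 value 22.2 times the day 1 mean. Zmat3 had the most fragments of the 10 genes at day 0, about 48.6, and its counting interval of 21.9 to 39.2 FPKM lay far above every day 1 value. The authors' deposited table calls it lower, with a log2 fold change of -3.78 and a false discovery rate of 0.0017. With the library constants divided out it was at 1.67, 1.82 and 2.76 at day 1 and 5.73 at day 0, still lower at day 1, though by 2.75-fold only. Among the 10 genes, Zmat3 and Plk2 are those called lower there, and Cdkn1a the one called higher; the rest are uncalled.

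All 3 day 1 libraries lay above day 0 for 6 of the 10 genes and below it for 3, against 48.6% and 25.4% of all 17519 genes. Of the 8 that were above 0 at day 0, 4 lay higher and 3 lower, against 44.4% and 43.9% of the 10141 such genes. With the library constants divided out, 8 of the 10 genes lay above day 0, Zmat3 lay below it and Plk2 overlapped, where 70.2% of all genes lay above and 6.52% below. The authors' deposited table calls 1 of the 10 genes higher and 2 lower, where 0.28% and 2.53% of all genes are called (2.81% in either direction). A test across all genes with limma, on log2(FPKM + 1) for the 13903 genes with at least 1 FPKM in a library, calls 4 of the 9 genes tested higher (Trp53, Cdkn1a, Sesn1 and Aen) and 2 lower (Plk2 and Zmat3), where 35.0% and 19.0% of all genes tested are called (54.0% in either direction). Phlda3 did not reach 1 FPKM. Since the genes were chosen with these values known, nothing is read from these shares. The median log2 difference of the 9 genes was 0.45, against 0.59 over all genes tested and 0.018 over those of them above 0 at day 0. Of the 9 genes, only Cdkn1a was listed at 0 at day 0.

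**Figure D3:**
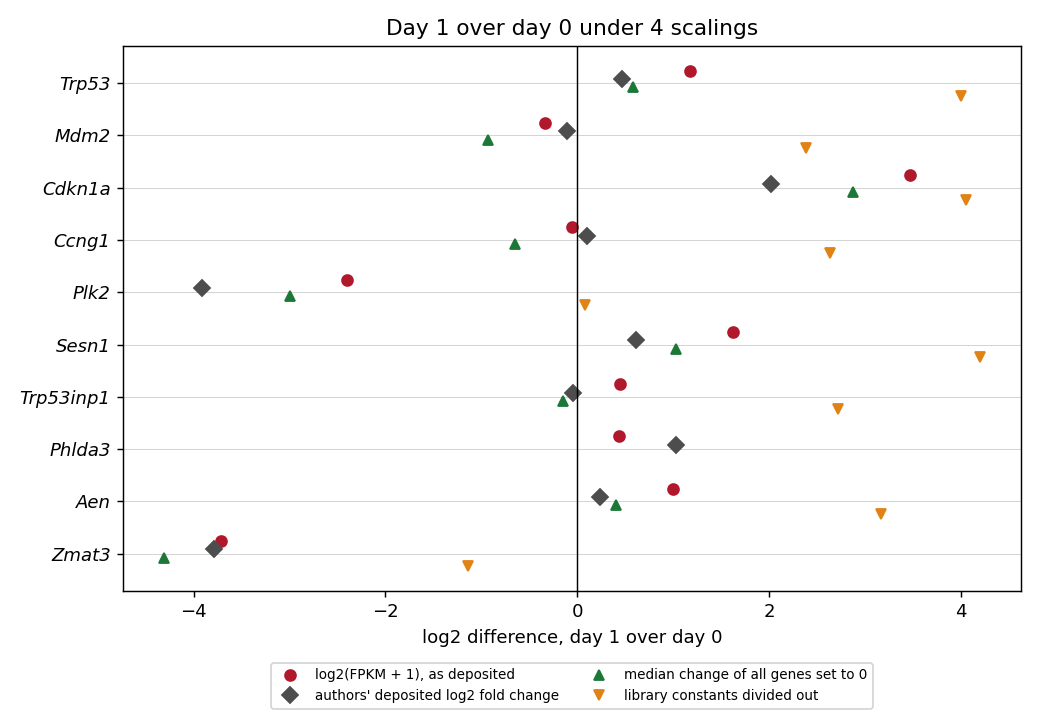
Log2 difference of day 1 over day 0 for each gene: as deposited on the log2(FPKM + 1) scale, in the authors' deposited table, with the median change of all genes set to 0, and with the library constants divided out (not available for Phlda3 under the last 2). Cdkn1a is above 0 and Zmat3 below 0 under all 4, while Plk2 is below 0 under 3 of them and at 0.08 with the constants divided out. A listed 0 at day 0 fixes the sign of Cdkn1a as deposited and with the constants divided out.

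Genes whose pattern over the 4 libraries was most like that of Cdkn1a were sought among the 8288 genes with at least 1 FPKM in every library, by the Euclidean distance of centred log2(FPKM + 1). The closest were Mprip at a distance of 0.029 (41.3, 40.9 and 39.0 FPKM at day 1, 2.77 at day 0), Eno3 at 0.057 (48.1, 48.0 and 46.5 at day 1, 3.28 at day 0) and Arl5c at 0.10 (88.4, 81.7 and 77.9 at day 1, 6.05 at day 0). With a listed 0 at day 0, the size of the Cdkn1a difference is set by the pseudocount, so another pseudocount could name other genes. The search leaves out genes listed at 0 at day 0. Among the 2127 such genes with at least 1 FPKM in every day 1 library, a group added after the values were seen, Slc39a13 (10.4, 9.69 and 9.91 at day 1) was closest, at 0.061.

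Other p53 targets, taken from lists of textbook targets, were tested in the same limma fit (adjusted p under 0.05, Benjamini-Hochberg over 13903 genes). The lone day 0 library is assumed there to vary like the day 1 libraries, and the fit does not carry its larger counting error. The shares over all genes tested, against which the counts of each list are to be read, were 35.0% rising and 19.0% falling. The median log2 change was 0.59 over all genes tested and 0.018 over the 10028 of them above 0 at day 0. Of 16 targets in cell cycle arrest and checkpoints, 9 rose, 1 fell and 6 were not called, with a median log2 change of 0.89. Ninj1, a membrane protein that ruptures dying cells, had 30.9, 32.4 and 29.3 FPKM at day 1 and 4.05 at day 0, where that value stands for about 1.13 fragments. Its change on the log2 scale was 2.66 ± 0.12 (SE, limma adjusted p = 0.0033). Cop1, a ubiquitin ligase for p53, was at 9.82, 6.15 and 6.93 at day 1 and listed at 0 at day 0. Gdf15 and Ckap2 were also called as rising, with at most 2.04 and 1.92 FPKM at day 1 and a listed 0 at day 0. At their day 1 levels in deposited FPKM, about 0.55 and 0.85 fragments would be found at day 0. A change was thus not detectable there on that scale. The fall was that of Ier5, named after its value was seen, at 36.5, 35.9 and 42.9 FPKM at day 1 and 78.4 at day 0. Pml (day 1 mean 97.0) and Gadd45a (21.03) were the highest genes without a call. The number called in this list was 6, 2 and 7 without day 1 replicate 1, 2 and 3.

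Of 14 tested targets in apoptosis, 7 rose, 1 fell and 6 were not called, where 35.0% of all genes rose and 19.0% fell. The median log2 change was 0.62, against 0.59 over all genes tested and 0.018 over those of them above 0 at day 0. Bax, which opens the outer mitochondrial membrane, had 107, 91.1 and 89.7 FPKM at day 1 and 16.8 at day 0, which is 2.44 ± 0.16 on the log2 scale (SE, limma adjusted p = 0.0043). Bid and Triap1 were 3.14-fold and 3.13-fold higher at day 1. The day 0 values of Bax, Bid and Triap1 stand for only about 3.92, 3.97 and 1.02 fragments. At its day 1 level Triap1 would give about 3.19 fragments at day 0. Pidd1 was at 5.48, 3.51 and 5.84 at day 1 and listed at 0 at day 0, where the same level would give about 3.52 fragments. The called fall was that of Dram1, named after its value was seen, which had 0.476 ± 0.149 FPKM (SD, n = 3) at day 1 and 1.64 FPKM at day 0. That day 0 value stands for about 0.98 fragments, so a change of Dram1 was not detectable at this depth. Ei24 and Fdxr were the highest genes without a call. The number called was 4 without day 1 replicate 2 and 5 without replicate 3.

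Of 13 targets in DNA repair and metabolism, 5 rose, 1 fell and 7 were not called, with a median log2 change of 0.92. That count of rises is near the 35.0% of all genes. Ddb2, which recognises ultraviolet damage, was at 19.3, 16.8 and 21.4 FPKM at day 1 and listed at 0 at day 0, where the same level would give about 9.07 fragments. Ercc5 and Polk, in excision repair and damage bypass, were also listed at 0 at day 0, with day 1 means of 4.12 and 2.40 FPKM. Those levels would give about 3.41 and 2.15 fragments at day 0. Pank1, an enzyme of coenzyme A synthesis, fell to 1.16 ± 0.51 FPKM (SD, n = 3) at day 1, against 7.33 FPKM at day 0. Ddit4 and Xpc were the highest genes without a call. With the library constants divided out, 15 genes of the arrest list, 12 of the apoptosis list and 10 of the repair list rose and none fell, where 68.0% of all genes rose and 3.41% fell. The authors' deposited table calls no gene of these 3 lists in either direction, and the lowest false discovery rate there is 0.065.

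**Figure D4:**
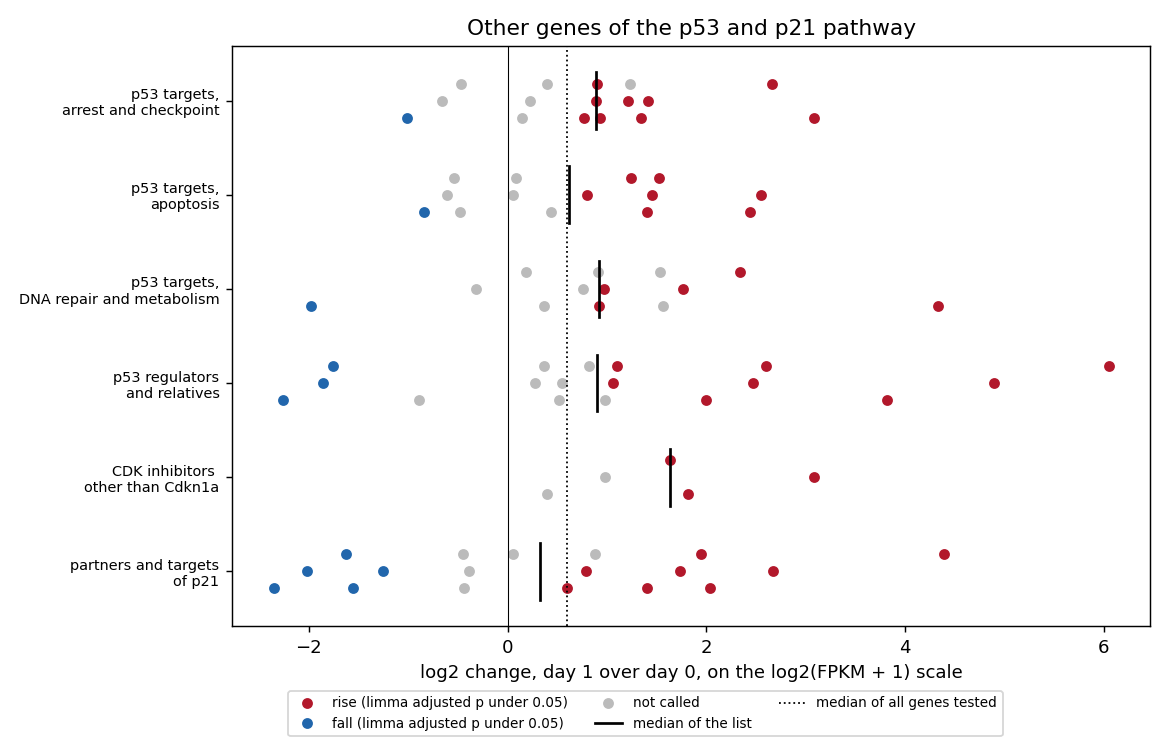
Log2 change of day 1 over day 0 for the tested genes of 6 lists (points; red for a rise and blue for a fall with limma adjusted p under 0.05, grey for no call), with the median of each list as a black bar and the median of all 13903 genes tested (0.59) as a dotted line. The medians of the 3 target lists lie at 0.89, 0.62 and 0.92, and that of the partners of p21 at 0.32.

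Among 18 tested regulators and relatives of p53, 8 rose, 3 fell and 7 were not called, near the 35.0% and 19.0% of all genes. Day 0 values of 0 stood behind 6 of the 8 rises, among them Mdm4, the Mdm2 relative that holds p53 inactive (4.78, 5.37 and 5.10 FPKM at day 1), Kat5, an acetyltransferase of the damage response (26.5, 27.6 and 32.9), Trp53rka (13.4, 12.8 and 13.1) and Rps27l (74.8, 59.0 and 63.0). Kat5 and Rps27l would give about 13.2 and 8.0 fragments at day 0 at their day 1 levels, and the authors' deposited table gives them uncalled log2 fold changes of 1.13 and 0.98. The 3 falls, named after their values were seen, were of the p53 coactivators Crebbp (3.73 ± 1.46 FPKM at day 1, SD, n = 3, against 20.96 at day 0) and Ep300 (9.23 ± 2.01 against 33.1) and of the p53 kinase Hipk2 (1.68 ± 0.44 against 8.61). Usp7 and Rpl5 were the highest genes without a call. Leaving out day 1 replicate 2 left 6 genes called. Dividing out the library constants, 12 of the 18 rose and none fell, where 68.0% and 3.41% of all genes did.

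Of the 5 other cyclin-dependent kinase inhibitors tested, 3 rose and none fell, where 35.0% and 19.0% of all genes did. Cdkn1b, which encodes p27, had 45.5, 51.2 and 56.6 FPKM at day 1 and 15.7 at day 0, or 1.64 ± 0.17 on the log2 scale (SE, limma adjusted p = 0.0080), so that Cdkn1b stood at a higher level than Cdkn1a in every library. Cdkn2c was at 7.30, 9.96 and 5.77 and Cdkn2b at 3.14, 1.92 and 2.64 at day 1, both listed at 0 at day 0. At those levels about 4.02 and 0.76 fragments would be found at day 0. Cdkn2d had 18.9, 7.65 and 13.8 FPKM at day 1 and 9.38 at day 0, and Cdkn2a 2.03, 0.654 and 0.522 at day 1 and a listed 0 at day 0, neither with a call. Cdkn1c did not reach 1 FPKM.

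The kinases, cyclins and pocket proteins on which p21 acts moved in both directions. Of 18 genes, 8 rose, 5 fell and 5 were not called, against 35.0% and 19.0% of all genes, with a median log2 change of 0.32. Cdk4 had 156, 150 and 134 FPKM at day 1 and 34.9 at day 0 (log2 change 2.04 ± 0.14, SE, limma adjusted p = 0.0046). Cdk2 was at 16.7, 21.6 and 22.2 at day 1 and listed at 0 at day 0, and Ccne1, the cyclin of Cdk2, was at 6.49, 8.62 and 10.3 at day 1 and 0.461 at day 0, less than 1 fragment. Cdk6 fell to 1.03 ± 0.09 FPKM (SD, n = 3) at day 1, against 9.33 FPKM at day 0 (log2 change -2.35 ± 0.16, SE, limma adjusted p = 0.0045). The other falls, named after their values were seen, were of Cdc25a, Rb1, Ccnd2 and Rbl1, with log2 changes of -2.02, -1.62, -1.55 and -1.25. Ccna2 and Ccnb1, cyclins of dividing cells, were at 5.19 ± 1.07 and 4.97 ± 1.88 FPKM (SD, n = 3) at day 1 and at 7.33 and 6.56 FPKM at day 0, with no call. None of the 18 genes is called in the authors' deposited table, and with the library constants divided out 12 rose and none fell (68.0% and 3.41% of all genes).

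Levels of cell type markers also differed between the days, and their part in the values above was not tested. The sum of each of the 11 marker lists was higher in all day 1 libraries once the library constants were divided out. The lower sums that follow therefore do not hold on that scale. The sum of the plasmacytoid dendritic cell markers, for instance, was then 273 to 434 at day 1 and 101 at day 0. Of the 10 macrophage and monocyte markers, 4 were still lower in all day 1 libraries on that scale and 5 were higher. The authors' deposited table calls Pax5, Cr2, Csf1r, C1qa, C1qb, C1qc, Vcam1, Ccr2, Itgax, Xcr1, Siglech, Klrb1c and Gzma lower, and no marker higher. In bulk RNA, fewer cells of a type and less RNA per cell cannot be told apart. The 5 MHC class II genes summed to between 15247 and 19025 FPKM at day 1 and 10515 FPKM at day 0, and 8 B cell markers to between 3216 and 3841 at day 1 and 3401 at day 0, with none at 0 in any library. Of the 8 B cell markers, 5 were higher and 3 lower in all day 1 libraries. Pax5 alone held 2118 FPKM of the day 0 sum, against a day 1 mean of 161 FPKM. Of 5 plasmacytoid dendritic cell markers 3 were lower in all day 1 libraries (sums of 197 to 251 at day 1 and 520 at day 0) and Bst2 and Irf8 higher. The markers lower in all day 1 libraries were, of 5 NK cell markers 3 (12.2 to 15.3 and 38.8; Ncr1 and Prf1 listed at 0 at day 0), of 6 conventional dendritic cell markers 4 (10.2 to 11.9 and 18.6; Zbtb46 listed at 0 at day 0, Flt3 higher) and of 10 macrophage and monocyte markers 6 (119 to 129 and 135; Mertk listed at 0 at day 0; Lyz2, Cd68 and Adgre1 higher). All 4 neutrophil markers measured were higher at day 1 (39.0 to 60.2 and 13.4; S100a9, Camp and Ngp listed at 0 at day 0), as were 4 of 5 plasma cell markers (431 to 473 and 315; Sdc1 and Prdm1 listed at 0 at day 0). The 6 T cell markers summed to between 72.2 and 105 at day 1 and 107 at day 0, with 3 higher and 3 lower in all day 1 libraries. The 6 erythroid genes summed to between 1830 and 4694 at day 1 and 3377 at day 0. Of these, 4 were higher in all day 1 libraries and 1 was lower (Hba-a2, 2606 FPKM at day 0). The 5 stromal and endothelial genes summed to between 35.7 and 44.3 at day 1 and 29.1 at day 0, with Col3a1 and Pdgfrb at 0 in every library. As level references, Actb had 2161, 2573 and 3105 FPKM at day 1 and 3296 at day 0, and Gapdh 834, 616 and 402 at day 1 and 447 at day 0.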

How the data were processed

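Per the labels' protocols, the authors isolated RNA with Qiagen RNeasy, sequenced it on an Illumina HiSeq, removed the 3' adaptor and reads under 10 nt, and estimated FPKM with Cufflinks. Per the submitters' processing notes the tools were cutadapt, TopHat 1.4.1, Cufflinks 2.2.1 and Cuffdiff, with build GRCm38.p6. Neither an annotation release nor the handling of strand is given in the sources used here. Per the file headers the deposited table also holds a log2 fold change, a mean log2 abundance, a p-value and its adjusted form (the false discovery rate). The headers do not say which test made them, while the labels speak of Cuffdiff and a cutoff of 0.05.

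The library constant was the step of which all values are whole multiples (100% of the low values, within 0.11 steps at most). The fragment step was searched in 1221 single-transcript coding genes of at least 1000 bases in GENCODE M21 (GRCm38, with 16232 of the 17519 gene IDs); between 61.3% and 68.4% of low values lay within 0.1 of a whole number, where chance gives 20%. Differences were tested with limma 3.58.1 (trend, R 4.3.3) on log2(FPKM + 1) with a minimum of 1 FPKM in a library; 2 residual degrees of freedom remain, and with 3 libraries against 1 an exact permutation test cannot go below p = 0.25. On simulated data with 3 libraries against 1 (12640 genes, every library like day 1), limma recovered 0%, 46%, 68% and 74% of log2 changes of 1, 2, 3 and 4. The simulation lacks the shallower and differently scaled day 0 library, so these shares do not describe the real comparison. Of 156 list entries 152 were in the table, 9 of them matched by gene ID under another symbol. The genes and lists were chosen with earlier results of these data known. Genes named from a list were up to 4 with the largest change among those called and up to 2 with the highest day 1 level among the rest. The p53 paired-site search was added after the data were examined. Alternatives covered the pseudocount, the filter, the scaling, genes at 0, the variance trend, the authors' deposited table and leaving out each day 1 library.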

Additional observations from a re-analysis of the deposited data

How the results depend on the processing

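No paired analysis was possible because the day 0 group has a single library. The log2 difference of Cdkn1a was positive under every alternative that gives it a value. With a listed 0 at day 0, no pseudocount, rescaling of libraries or left-out day 1 library could have given another sign. Its size was 3.44 to 3.49 without 1 day 1 library, 6.66 and 1.59 with pseudocounts of 0.1 and 5, and 3.40 with median-of-ratios scaling. It was 2.87 with the median change set to 0, 4.05 with the library constants divided out (chosen after seeing the data) and 2.02 in the authors' deposited table. Plk2 reversed to 0.078 with the constants divided out; the median change of all genes is then 2.26, and Mdm2 and Ccng1 also turn positive, at 2.38 and 2.63. Trp53inp1 was at -0.15 with the median set to 0. Over all genes, 4869 rose and 2640 fell. Rises numbered 3034 (3895 falls) with the median set to 0, 2834 without genes listed at 0 at day 0, 2549 to 4050 without 1 day 1 library, 9680 with the constants divided out and 49 in the authors' deposited table. Falls numbered 1393 to 2122 without 1 day 1 library, 485 with the constants divided out and 443 in the authors' deposited table. Among the fits that leave out 1 library, the lowest count in each direction came without day 1 replicate 2. The authors' deposited table calls 0 genes of each of the 6 lists. Called genes in the arrest list (10) numbered 4 with the median set to 0 and 2 to 7 without 1 day 1 library, in the apoptosis list (8) 4 to 6 without 1 day 1 library, and in the repair list (6) 3 without genes at 0, 10 with the constants divided out and 4 to 6 without 1 day 1 library. In the regulator list (11) they numbered 5 without genes at 0 and 6 to 9 without 1 day 1 library, among the other kinase inhibitors (3) 1 without genes at 0 and 2 to 3 without 1 day 1 library, and among the partners of p21 (13) 9 to 12 without 1 day 1 library. Fewer genes are tested without those at 0; the cause of the other shifts was not tested. Depth limits the day 0 library most. There, 3 fragments in a 2 kb transcript are worth 7.07 FPKM, against at most 0.501 FPKM at day 1. Both values include the library constants as well as depth.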
